A study of Mus musculus with 6 samples.

Results

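The lysosome is the acidic compartment in which cells break down proteins, lipids and sugars. It holds soluble hydrolases, among them the cathepsin proteases, small cofactor proteins that present lipids to those enzymes, a membrane lined with heavily glycosylated proteins, and a proton pump that keeps the lumen acid. Cytotoxic lymphocytes use lysosome-related granules to store their killing proteins, and in cells that present lipids to natural killer T (NKT) cells, saposins made in lysosomes help lipids onto CD1d. Macrophages, which digest what they engulf, are known for a large lysosomal compartment.

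The transcripts of 33 lysosomal genes were followed in mature thymic NKT cells, which are T lymphocytes whose receptor recognises lipids on CD1d. The genes were given as a list of hydrolases, cathepsins, cofactors and membrane proteins, 33 of 19057 named genes, and every probe annotated to them was taken, 74 of the 45263 probes used on the Illumina bead array. Cells with CD44 and NK1.1 at the surface were sorted from the thymus of male C57BL/6 mice into CD103+ and CD103- cells, with 3 arrays each, and no agent or altered allele was named for either group. CD103 is the alpha chain of an integrin that binds E-cadherin, and the labels give neither the age of the mice nor whether animals were pooled. The question is which transcripts set CD103+ NKT cells apart from CD103- NKT cells. All values below are log2 signals after background correction and quantile normalization, and differences are CD103+ minus CD103-.

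The arrays differed in brightness before normalization, with a mean signal of 501.6 to 825.9 on the CD103+ arrays and of 276.5 to 526.2 on the CD103- arrays, where arrays 2 and 3 were the dim ones. The share of probes above background was 38.3% to 40.5% in CD103+ cells and 34.0% to 38.8% in CD103- cells. Itgae, which encodes the sorted CD103 chain, was 26.5-fold higher in CD103+ cells (log2 difference 4.73, SE 0.181, adjusted p = 9.5e-05), so each group followed its label. All 9 measured genes of T and NKT cell identity were detected on all 6 arrays, and none passed limma's test. At an unadjusted p under 0.05, 2 of the 9 were lower, beside 5.23% of all measured genes. They were Zbtb16 at -0.68 (adjusted p = 0.0753) and Il2rb at -0.66 (adjusted p = 0.152). Of the 9, 3 had all CD103+ arrays below all CD103- arrays, namely Zbtb16, Il2rb and Klrb1c (-0.46, adjusted p = 0.332), and 2 had them above.

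Of the 33 lysosomal genes, 31 were measured, that is, detected on at least 3 of 6 arrays, and 27 of these were detected on all 6. The other two, Ctsl (cathepsin L, a cysteine protease) and Gla (alpha-galactosidase, which removes terminal galactose from glycolipids), had 1 probe each that was not above background on any array. Lgmn and Ctsh rose in CD103+ cells and no member fell, so 2 of 31 passed an adjusted p of 0.05, against 1.16% of all 8999 measured genes higher and 0.222% lower. Ctsh was detected on no CD103- array, so it entered only through CD103+ cells and had to be higher there. The same held for 158 of the 8999 genes. Lgmn was detected on all 3 CD103+ arrays and on 1 CD103- array, so it too met the filter through CD103+ cells. With the replicate number as a block, 1 member passed, Ctsh. At an unadjusted p under 0.05, 8 members were higher and 1 lower, beside 8.95% and 5.23% of all measured genes. The other 29 members did not pass, and 26 of 31 differed by less than 0.5 on the log2 scale, a share of 83.9% beside 86.6% of all genes. Differences were positive for 21 of 31 members, beside 56.9% of all measured genes, with a median of 0.15 over the members and 0.05 over all measured genes. For 10 members the 3 CD103+ arrays lay above the 3 CD103- arrays and for 1 below them, whereas 14.5% of all measured genes lay above and 8.72% below. In bulk samples a change in the number of cells of a type and a change in RNA per cell cannot be told apart.

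**Figure D1:**
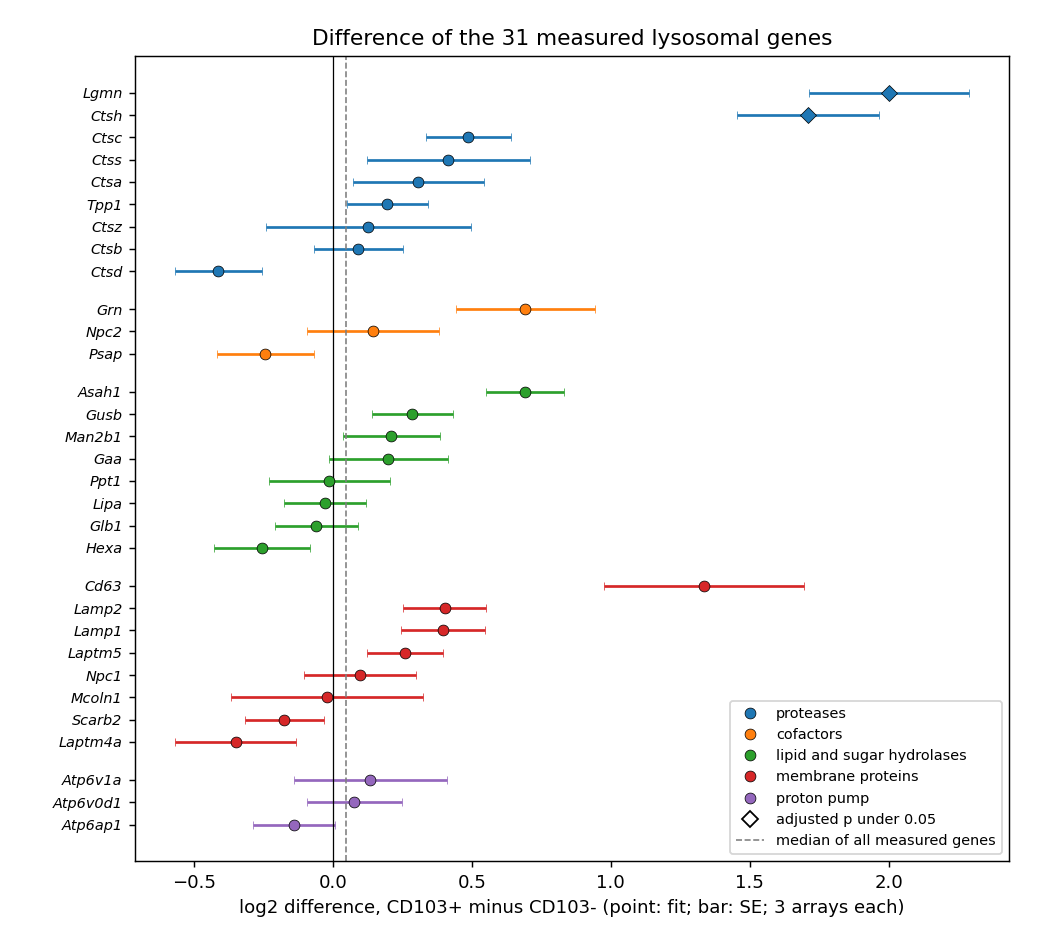
Log2 difference (CD103+ minus CD103-, horizontal axis) with its SE for each of the 31 measured lysosomal genes (vertical axis), ordered by role, with the median of all measured genes as a dashed line. Lgmn at 2.0 and Ctsh at 1.71, drawn as diamonds, passed the test, Cd63 at 1.33 did not, and the other 28 genes lay between -0.41 and 0.69.

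The proteases held both genes that passed. Lgmn encodes legumain, a protease that cuts after asparagine and processes other lysosomal enzymes. Its signals were 7.46, 6.70 and 7.50 on CD103+ arrays 1, 2 and 3, and 4.87, 5.12 and 5.66 on CD103- arrays 1, 2 and 3. All CD103+ arrays lay above all CD103- arrays, and its probe was detected on 1 CD103- array. Lgmn rose by 2.0 on the log2 scale, or 4.0-fold (SE 0.287, adjusted p = 0.0244 by limma, 3 arrays a group), or 1.69 on the log2 scale with the undetected arrays raised to the smallest signal among detected probes. With the replicate number as a block its adjusted p was 0.0522, and without CD103+ array 1 or 3 or CD103- array 2 it was 0.142, 0.123 or 0.0771.

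Ctsh encodes cathepsin H, a cysteine protease that trims the amino end of proteins. Its signals were 6.65, 6.36 and 7.14 in CD103+ cells and 5.24, 4.62 and 5.16 in CD103- cells, without overlap. No CD103- array detected it, so only a bound can be given: Ctsh was at least 2.36-fold higher (fitted log2 difference 1.71, SE 0.254, adjusted p = 0.0273, and 0.0433 with the replicate block). A bound here is taken against the probe's own signal or, where that is lower, the smallest signal among detected probes on the same array. Its second probe also passed, at 5.68, 5.98 and 5.47 in CD103+ cells and 4.49, 4.46 and 4.48 in CD103- cells, with a bound of 1.17-fold (adjusted p = 0.0202). No CD103- array detected this probe either, so both probes entered only through CD103+ cells and had to be higher there. Leaving out CD103- array 1 kept Ctsh past the threshold (adjusted p = 0.0274), and leaving out any of the other 5 arrays did not (adjusted p = 0.0589 to 0.143). With the dim CD103- arrays 2 and 3 left out, the log2 differences were 2.60 for Lgmn (adjusted p = 0.0589) and 1.64 for Ctsh (adjusted p = 0.116), and with array brightness as a covariate they were 2.66 (adjusted p = 0.117) and 1.77 (adjusted p = 0.387).

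The other proteases did not pass. Ctsc, cathepsin C, which activates the granzymes of cytotoxic cells, gave 11.29, 11.21 and 11.31 in CD103+ cells and 10.60, 10.76 and 10.98 in CD103- cells. Its groups did not overlap on any of its 3 probes, whose log2 differences were 0.49, 0.66 and 0.76 (adjusted p = 0.212, 0.130 and 0.0742). Ctsd, the aspartic protease cathepsin D, was the only member whose brightest probe had all CD103+ arrays below the CD103- arrays, at 6.69, 6.46 and 6.72 in CD103+ cells and 6.91, 7.22 and 6.98 in CD103- cells (log2 difference -0.41, SE 0.156, adjusted p = 0.290). Ctsb, a cysteine protease, gave 12.60, 12.48 and 12.24 in CD103+ cells and 12.37, 12.47 and 12.21 in CD103- cells. These groups overlapped, with a difference of 0.09 (adjusted p = 0.818). The groups also overlapped for Ctss, a cysteine protease of antigen-presenting cells, at 0.42, for the carboxypeptidase Ctsa at 0.31, for the tripeptidyl peptidase Tpp1 at 0.20 and for the carboxypeptidase Ctsz at 0.13 (adjusted p = 0.544 to 0.894). These values are from the brightest probes. A second measured Ctsa probe was without overlap at 0.39 (adjusted p = 0.313), and a second Ctsz probe overlapped at -0.14.

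**Figure D2:**
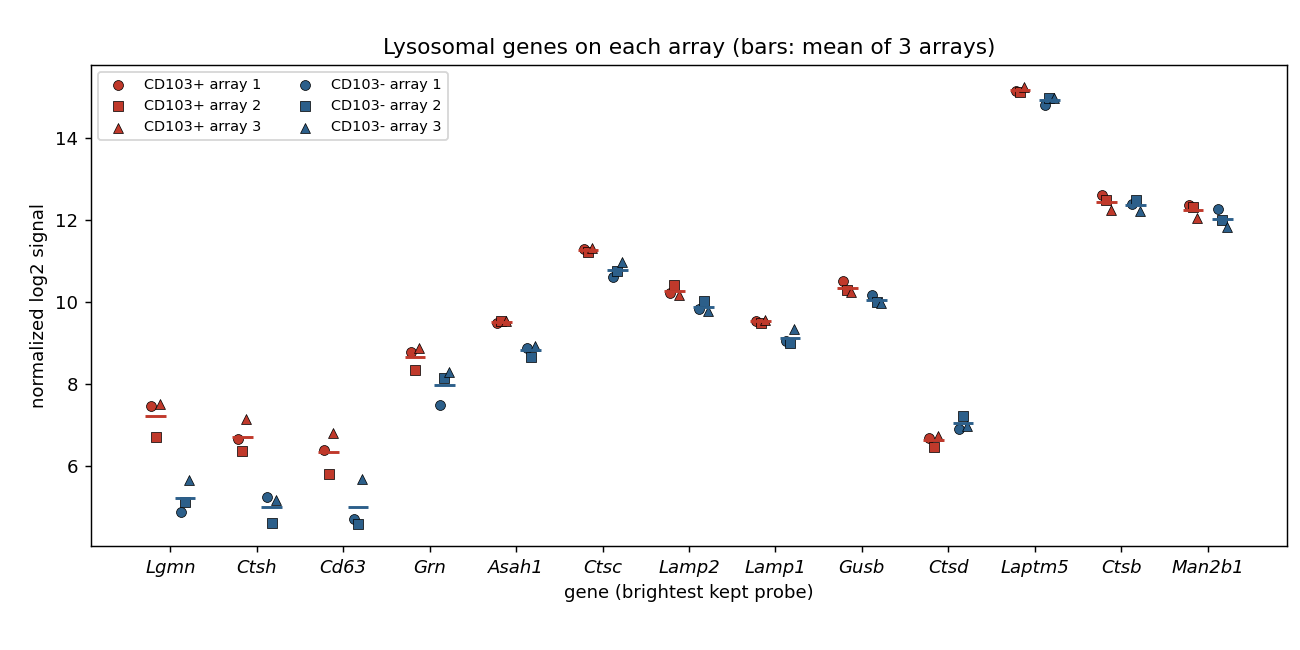
Normalized log2 signal (vertical axis) on each of the 6 arrays for 13 lysosomal genes (horizontal axis), CD103+ arrays left and CD103- arrays right within each gene, with bars at the mean of 3 arrays. Lgmn and Ctsh show the widest gaps between the groups, and Cd63 a narrow one between 5.81 and 5.70. On the brightest probe, shown here, CD103+ array 2 is the lowest CD103+ array for each of these 3. Ctsb and Man2b1 overlap, and signals of different probes do not rank the amounts of different transcripts.

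Legumain was the member past the threshold with a promoter sequence, and its windows are shown because its difference was the largest among the members. RefSeq windows (GRCm38.p6, 250 bases before to 50 after a start site) were found for 29 of the 33 genes, not for Ctsh, Ctsb, Asah1 or Npc1. They were searched for CACGTG and for TCACGTGA, a longer form bound by TFEB and related factors that switch on lysosomal genes. Both read the same on either strand, and the longer holds the shorter. Lgmn has 2 windows on the minus strand, chr12:102439679-102439978 and chr12:102439043-102439342, and the second holds CACGTG, in capitals.
Lgmn window 1: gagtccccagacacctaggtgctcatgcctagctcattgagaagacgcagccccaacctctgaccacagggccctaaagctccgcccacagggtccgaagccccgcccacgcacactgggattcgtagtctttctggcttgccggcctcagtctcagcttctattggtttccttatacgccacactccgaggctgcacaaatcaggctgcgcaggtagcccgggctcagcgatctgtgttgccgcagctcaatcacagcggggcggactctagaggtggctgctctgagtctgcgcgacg
Lgmn window 2: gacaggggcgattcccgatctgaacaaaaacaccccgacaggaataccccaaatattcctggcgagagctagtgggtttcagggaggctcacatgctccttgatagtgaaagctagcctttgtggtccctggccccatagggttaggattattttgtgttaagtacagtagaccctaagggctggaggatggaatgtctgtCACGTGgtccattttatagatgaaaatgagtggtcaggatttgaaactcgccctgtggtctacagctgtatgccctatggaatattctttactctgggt

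Among the 29 genes with a window, 11 held CACGTG (37.9%), against 22 of 95 other lysosomal genes (23.2%) and 8.09% of 27025 genes with a window. The longer TCACGTGA was in 6 members (20.7%), against 10 other lysosomal genes (10.5%) and 1.12% of all genes. Extended by a G before and a C after it, it was in 0 of 29 members, against 4 of 95 other lysosomal genes (4.21%) and 0.370% of all genes. The stretches around TCACGTGA, in capitals, were chosen after the search. The choice of genes did not use this motif, but the factors that bind it are known for switching on lysosomal genes. Its share in a lysosomal list is therefore no independent result, and it does not compare CD103+ with CD103- cells. They lie at chr2:164833744-164833800 (plus strand) for Ctsa, chr7:142387903-142387942 (minus) for Ctsd, chrX:134601177-134601249 (minus) for Gla, chr8:3500457-3500496 (plus) for Mcoln1, chr8:105566045-105566084 (minus) for Atp6v0d1 and chr16:44139368-44139407 (minus) for Atp6v1a.
Ctsa: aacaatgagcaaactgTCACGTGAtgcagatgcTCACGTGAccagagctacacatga
Ctsd: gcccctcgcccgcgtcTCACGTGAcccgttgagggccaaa
Gla: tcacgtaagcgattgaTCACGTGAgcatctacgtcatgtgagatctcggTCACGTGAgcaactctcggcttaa
Mcoln1: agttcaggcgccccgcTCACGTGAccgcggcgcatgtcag
Atp6v0d1: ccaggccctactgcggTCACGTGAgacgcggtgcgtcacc
Atp6v1a: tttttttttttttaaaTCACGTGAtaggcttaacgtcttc
The 5 measured members with TCACGTGA had log2 differences of -0.41 to 0.31 with a median of 0.08, and none passed. The 9 measured members with CACGTG had a median of 0.14, and the 18 without it one of 0.17.

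Among the cofactors and secreted helpers none passed limma's test, with 1 of 3 higher at an unadjusted p under 0.05. That was Grn, which encodes progranulin, a precursor cut into granulins in the lysosome, with 8.77, 8.35 and 8.88 in CD103+ cells and 7.49, 8.13 and 8.29 in CD103- cells. Its groups did not overlap, by 0.69 on the log2 scale (SE 0.250, adjusted p = 0.271), and CD103- array 1 lay lowest. Psap, the precursor of the saposins, lay at -0.24 (adjusted p = 0.549) and Npc2, a soluble carrier of cholesterol, at 0.15 (adjusted p = 0.806), both with overlapping groups.

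Of 8 measured hydrolases of lipids and sugars none passed limma's test, with 1 higher at an unadjusted p under 0.05. Asah1, acid ceramidase, which splits ceramide into sphingosine and a fatty acid, gave 9.47, 9.52 and 9.54 in CD103+ cells and 8.88, 8.66 and 8.92 in CD103- cells. The 3 CD103+ arrays lay close together and above all CD103- arrays (log2 difference 0.69, SE 0.141, adjusted p = 0.0796, and 0.132 with the replicate block). Asah1 passed in 5 of 22 other settings, with adjusted p from 0.0166 to 1.0 over all of them, while its second probe overlapped between the groups at 0.57 (adjusted p = 0.452).

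Gusb, beta-glucuronidase, gave 10.49, 10.28 and 10.23 in CD103+ cells and 10.16, 10.01 and 9.98 in CD103- cells, without overlap, and a difference of 0.29 (adjusted p = 0.408), while its other 3 probes overlapped at -0.02 to 0.12. Man2b1, lysosomal alpha-mannosidase, gave 12.36, 12.31 and 12.03 in CD103+ cells and 12.26, 12.00 and 11.83 in CD103- cells, with overlap, and a difference of 0.21 (adjusted p = 0.610). Hexa, the alpha subunit of beta-hexosaminidase, had the lowest value of this group at -0.25, with 8.40, 8.24 and 8.71 in CD103+ cells and 8.61, 8.85 and 8.64 in CD103- cells (adjusted p = 0.526). Gaa, which degrades glycogen, lay at 0.20, the thioesterase Ppt1 at -0.01, the acid lipase Lipa at -0.03 and the beta-galactosidase Glb1 at -0.06, all with overlapping groups. A second Glb1 probe had the lowest difference of all measured member probes, -0.65 (SE 0.236, adjusted p = 0.274), also with overlap.

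Of 8 membrane proteins none passed limma's test on the brightest probe, with 3 higher at an unadjusted p under 0.05. Cd63, a tetraspanin of late endosomes, lysosomes and secretory granules, gave 6.39, 5.81 and 6.80 in CD103+ cells and 4.72, 4.59 and 5.70 in CD103- cells on that probe. The groups were parted by a narrow gap, between CD103+ array 2 and CD103- array 3 (log2 difference 1.33, SE 0.359, adjusted p = 0.157), and the difference was 0.80 with the undetected arrays raised as for Lgmn. A second Cd63 probe gave 6.37, 6.40 and 6.10 in CD103+ cells and 5.41, 4.85 and 4.70 in CD103- cells, and passed (1.31, SE 0.216, adjusted p = 0.0414, or 0.77 with the undetected arrays raised). Both were detected on all CD103+ arrays and on 1 CD103- array. By probes, 4 of 59 measured member probes were thus higher and none lower, beside 0.928% and 0.252% of all probes. Among the 4 are both Ctsh probes, which entered only through CD103+ cells and had to be higher there. The Lgmn and Cd63 probes among the 4 were detected on all CD103+ arrays and on 1 CD103- array. They too met the filter of 3 arrays through CD103+ cells, so none of the 4 would have entered through its CD103- arrays.

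Lamp1 and Lamp2, the abundant glycoproteins that line the lysosomal membrane, were each higher on every CD103+ array. Lamp1 gave 9.54, 9.48 and 9.56 in CD103+ cells and 9.05, 8.99 and 9.34 in CD103- cells (log2 difference 0.40, SE 0.151, adjusted p = 0.290). Lamp2 gave 10.21, 10.42 and 10.17 in CD103+ cells and 9.81, 10.01 and 9.76 in CD103- cells (0.40, SE 0.149, adjusted p = 0.280). The other 5 measured Lamp2 probes lay between -0.04 and 0.80, and 4 of them overlapped between the groups. Laptm5, a protein of blood cells that sends T cell receptor chains to the lysosome for degradation, gave 15.14, 15.11 and 15.23 in CD103+ cells and 14.78, 14.96 and 14.96 in CD103- cells, without overlap (0.26, SE 0.137, adjusted p = 0.426). Its direction turned with the scaling, to -0.51 with median scaling, -0.32 with cyclic loess, -0.54 in the authors' values and -0.67 in these values centred.

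Laptm4a, a related membrane protein, lay at -0.35, with 9.65, 9.08 and 9.67 in CD103+ cells and 9.56, 9.83 and 10.05 in CD103- cells (adjusted p = 0.493). Npc1, which moves cholesterol out of the lysosome, lay at 0.10, while its other 4 measured probes ranged from -0.47 to 0.30, the lowest of them without overlap between the groups (adjusted p = 0.316). The calcium channel Mcoln1 lay at -0.02 and Scarb2, an abundant protein of the lysosomal membrane, at -0.17. None of 3 members of the proton pump passed limma's test, also none at an unadjusted p under 0.05. The subunit Atp6v1a of the ATP-splitting part lay at 0.14, the subunit Atp6v0d1 of the membrane part at 0.08 and the accessory protein Atp6ap1 at -0.14. The groups overlapped for each on the brightest probe. Other measured Atp6v0d1 probes ranged from -0.14 to 0.22, the highest of them without overlap (adjusted p = 0.501).

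**Figure D3:**
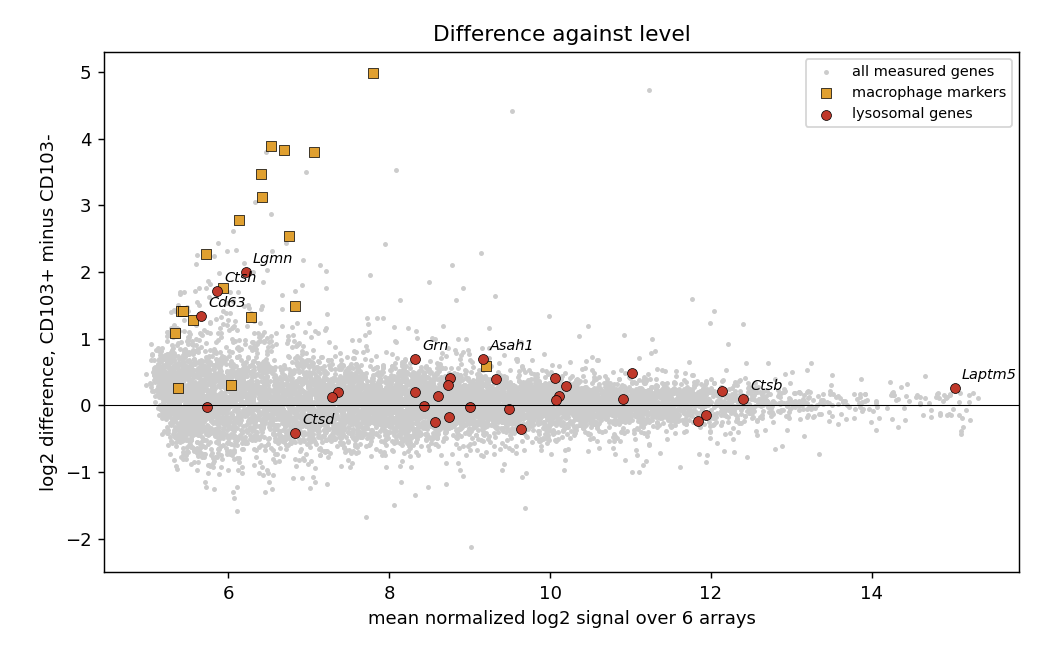
Log2 difference (CD103+ minus CD103-, vertical axis) against the mean normalized log2 signal over 6 arrays (horizontal axis) for all measured genes in grey, macrophage markers as squares and lysosomal genes as circles. Lgmn, Ctsh and Cd63 lie among the macrophage markers at low signal, and the other 28 lysosomal genes lie within -0.41 to 0.69.

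Markers of macrophages moved with the groups. Of 30 markers 19 were measured, and 11 of these were higher and none lower in CD103+ cells (7 higher with the replicate block). Over all measured genes the shares were 1.16% higher and 0.222% lower. The markers Mertk, Cd5l, Spic, Marco, Cd14, Fcgr1, Msr1, Trem2, Hmox1, Itgam and Spi1 were not measured. Of the 19, 10 were detected on all 3 CD103+ arrays and on no CD103- array. They thus entered only through CD103+ cells and had to be higher there, as did 158 of the 8999 measured genes. On all 6 arrays, 2 of the 19 were detected, beside 80.6% of all measured genes. The summed normalized signal of the 19 was 4317 to 6025 on the CD103+ arrays and 1067 to 1230 on the CD103- arrays. Of the defining markers, C1qb, a chain of complement C1q, rose at least 7.97-fold (adjusted p = 0.00255) and Adgre1, the gene of a surface receptor used to stain mouse macrophages, at least 2.59-fold (adjusted p = 0.00537), neither of them above background on any CD103- array. With C1qb, the genes with the widest differences were Lyz2, which encodes lysozyme, at 4.98 on the log2 scale (adjusted p = 0.00119, detected on 2 CD103- arrays), the adhesion molecule Vcam1, at least 8.73-fold (adjusted p = 0.00521), and the iron exporter Slc40a1 at 3.79 (adjusted p = 0.0136). Csf1r, the receptor for the macrophage growth factor M-CSF, was detected on all 6 arrays and lay at 0.31 (adjusted p = 0.545), and Cd68 is not analysed here. The part of these markers in the differences of Lgmn, Ctsh and Cd63 was not tested.

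Of the other marker lists none had a gene past limma's test. Dendritic cell markers had 6 measured genes with 4 higher and 1 lower at an unadjusted p under 0.05, B cell markers 3 with 1 higher, granulocyte markers 3 with none, thymic epithelium markers 1 with none and double-positive thymocyte markers 4 with 1 lower.

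CD103+ array 2 and CD103- array 1 were each set beside the other arrays of their population, without a test. On CD103+ array 2, 17 of 19 macrophage markers lay below the mean of CD103+ arrays 1 and 3, with a median of -0.66 on the log2 scale. Above this mean were Lyz2 at 0.34 and Mpeg1 at 0.52. Of the lysosomal genes, 18 of 31 lay below it there, with a median of -0.07, beside 48.3% of all measured genes. By brightest probe, Lgmn at -0.78, Cd63 at -0.79 and Ctsh at -0.54 were among them, as were Ctsa at -0.59 and Laptm4a at -0.58. Ctss lay above at 0.56. The second probes of Ctsh and Cd63, by contrast, were highest on CD103+ array 2, at 5.98 and 6.40. On CD103- array 1, 23 of 31 lysosomal genes lay below the mean of CD103- arrays 2 and 3 (74.2%, beside 45.0% of all measured genes), with a median of -0.19. Ctsz at -1.32, Ctss at -0.87 and Grn at -0.72 lay lowest there and Atp6v1a highest at 0.95. Without CD103- array 1 the median difference of the 31 members was 0.10 and 17 were positive, against 0.15 and 21 with all arrays.

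**Figure D4:**
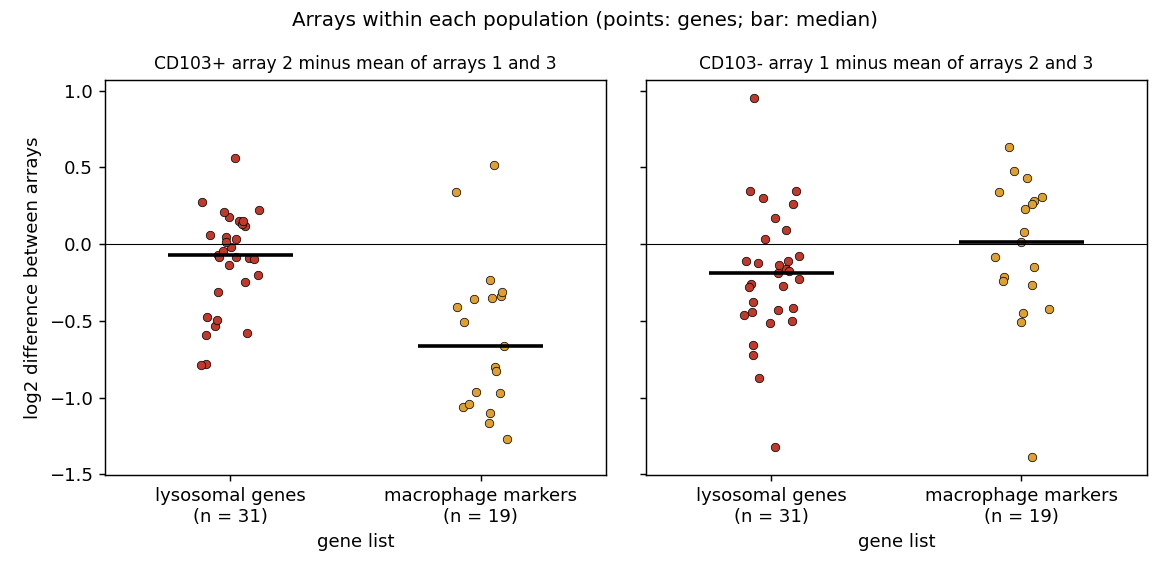
Log2 difference between arrays of the same population (vertical axis) for 31 lysosomal genes and 19 macrophage markers (horizontal axis, points are genes, bars are medians), for CD103+ array 2 against CD103+ arrays 1 and 3 (left) and CD103- array 1 against CD103- arrays 2 and 3 (right). The medians are -0.07 for lysosomal genes and -0.66 for macrophage markers on the left, and -0.19 and 0.01 on the right.

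The rest of the lysosomal machinery was followed with 125 further genes, of which 96 were measured. None passed limma's test in either direction, and their median difference was 0.05. At an unadjusted p under 0.05, 5 of the 96 were higher and 9 lower, beside 8.95% and 5.23% of all measured genes. The 23 other hydrolases had a median of 0.10, the 22 other membrane proteins and transporters -0.13, the 13 further subunits of the proton pump 0.10, the 23 genes of sorting to the lysosome -0.02, the 11 regulators, among them Tfe3 and Ragulator subunits, 0.09, and the 4 protease inhibitors 0.20. The widest difference was that of Mcoln2, a cation channel related to Mcoln1 and named here after its values were seen. Mcoln2 gave 7.68, 7.46 and 7.36 in CD103+ cells and 6.32, 5.29 and 4.80 in CD103- cells, of which 1 array detected it (log2 difference 2.03, SE 0.361, adjusted p = 0.0545).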

How the data were processed

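Per the file headers, the authors deposited 1 fluorescence intensity per probe and array without normalization, with a detection p-value beside it. A second table holds the authors' log2 values, deposited with the scaling not given in the sources used here. Of 45281 probes, 18 with values shifted by annotation text were left out. Names came to 1 symbol on 34874 probes, several on 18 and none on 10371, from the array's annotation updated through a mouse gene table (GRCm38.p6).

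Background correction and quantile normalization used the neqc function (R 4.3.3, limma 3.58.1, offset 16, background inferred from detection p-values). A probe entered the fit when 3 or more of the 6 arrays detected it (detection p under 0.05), which left 17462 probes and 8999 genes, and a gene is its kept probe with the highest mean. CD103+ minus CD103- was fitted with lmFit and eBayes in a two-sided test, and p-values were adjusted by Benjamini-Hochberg across every probe fitted. The fit was tested on simulated data, in which part of the genes with a set change were not called. A gene that did not pass may thus still differ. The median SE was 0.195 log2 units, and the number of arrays limits the precision. With 3 arrays against 3, the smallest exact permutation p is 0.1. The series gives the arrays as biological replicates, without saying how many mice each holds.

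The labels do not say whether arrays of the same replicate number were paired. Correlations of deviations from the group means were 0.170, 0.125 and 0.305 for the same number and -0.231 to 0.0824 for different numbers. So few and weak correlations cannot settle whether the arrays were paired, and the reported fit has no block. The block is given beside a result where it changes a call. The members, the gene lists and the alternatives were chosen with earlier results of these data known. Named with values were members past the threshold, up to 8 others without overlap between the groups, the 3 with the lowest differences and the 3 with the highest signals, and, outside the list, Itgae and macrophage markers. The 22 alternatives covered background correction, offset, scaling, the authors' values, the filter, eBayes options, the block, left-out arrays, brightness, the threshold and the probe rule.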

Additional observations from a re-analysis of the deposited data

How the results depend on the processing

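Of the members, Ctsh and Lgmn passed, and each passed in 11 of 21 other settings. The count of members higher was 0 with median scaling centred on all kept probes and with no filter. It was also 0 with probes detected on all 6 arrays, which leaves out Lgmn, Ctsh and Cd63. It was 0 as well with array brightness as a covariate and at an adjusted p under 0.01. It was 1 with cyclic loess and with the replicate block, and 4 with the mean of all kept probes of a gene, where Cd63 and Ctsc passed too. Leaving out 1 array gave 0 to 2. No member was lower in any of these settings. Over all genes, 104 were higher in the reported fit and 2 (brightness) to 289 (without CD103- array 1) in the alternatives. The median difference of members was 0.32 with brightness as a covariate and 0.10 to 0.24 with 1 array left out. Other lysosomal genes higher numbered 1 with no background correction, normexp, an offset of 50, cyclic loess, the authors' centred values, the stricter filter, eBayes with trend and the mean of probes, in each case Mcoln2, and 2 with the authors' values as deposited. With 1 array left out 0 to 1 were higher and 0 to 1 lower. Macrophage markers higher numbered 0 with probes detected on all 6 arrays and with brightness, 3 without the dim arrays, 7 with the replicate block and at 0.01, and 7 to 11 with 1 array left out. Over all members and settings, 602 of 677 values kept direction and call, 20 lost the call and 7 gained it. Another 48, in 17 members, among them Laptm5, changed sign without a call on either side. Only Lgmn and Ctsh had a call to lose, so all 20 lost calls were theirs. The other 29 members did not pass in the reported fit, so an unchanged value mostly means that a member again did not pass. Before centring, the median difference of all kept probes was 0.96 with median scaling and 0.13 in the authors' values. The cause of these changes was not tested. Signals near background limit Ctsh, Lgmn and Cd63 in CD103- cells.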
